A study of Mus musculus with 3 samples.

Results

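The Ly6 genes encode small surface proteins, and 1 of them, Ly6e, separated the 3 lines of this series by the widest margin among those measured. The set comprised 6 listed genes (Ly6e, Ly6a, Ly6c1, Ly6d, Ly6k and Ly6g6c), taken by gene symbol from the array's annotation. Of these, 4 (Ly6e, Ly6d, Ly6k and Ly6g6c) had 1 probe set of their own, out of 19938 genes with such probe sets. Ly6c1 was read by 2 probe sets that it shares with Ly6c2, and Ly6a was not analysed here. The 6 genes were selected on their log2 levels in these same 3 lines, as earlier results had shown them, so their values are given as a description.

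Expression was measured in CT26, a mouse colon carcinoma line kept in culture in RPMI1640 with 10% fetal bovine serum. All 3 groups carry a stably transfected PIG vector and went through puromycin selection, a sort for GFP and single-cell cloning. The miR-Ctrl group (Ctrl) carried the control microRNA vector, and the miR-17~92Med (Med) and miR-17~92Hi (Hi) groups expressed the microRNA cluster of that name at a medium and at a high level. The design text names 3 subclones per group, but each group has 1 column of values, and the sources used here do not say whether that column is 1 subclone, a pool or a mean. No value below therefore has a measured error, and no test was possible. A difference between lines from the cluster and one between clones cannot be told apart.

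Ly6 proteins share a compact domain held together by disulfide bonds, the LU domain, which is also found in the urokinase receptor and in CD59. Most are tethered to the outer face of the plasma membrane by a glycosylphosphatidylinositol (GPI) lipid anchor. In the mouse many of their genes lie side by side on chromosome 15, while Ly6g6c lies on chromosome 17, in the major histocompatibility complex. Several, Ly6e and Ly6a among them, are known to be induced by interferon, and Ly6a, as Sca-1, is a common marker of stem and progenitor cells. Ly6 proteins are widely used as markers of blood cell types.

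By their labels the groups differ in the microRNA cluster. Its 6 main mature products are shown because the dose of these sequences is the labelled difference between Med and Hi. The sequences are from RefSeq (GRCm38.p6, plus strand of chromosome 14), written 5′ to 3′ with the seed, bases 2 to 8, in capitals.
miR-17-5p: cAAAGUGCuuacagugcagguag
miR-20a-5p: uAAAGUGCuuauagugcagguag
miR-18a-5p: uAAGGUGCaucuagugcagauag
miR-19a-3p: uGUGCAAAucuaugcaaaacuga
miR-19b-3p: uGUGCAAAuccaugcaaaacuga
miR-92a-3p: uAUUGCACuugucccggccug
They hold 4 distinct seeds, 1 shared by miR-17 and miR-20a and 1 shared by miR-19a and miR-19b. The first, miR-17-5p, maps to chr14:115043684-115043706 and the last, miR-92a-3p, to chr14:115044476-115044496. Whether Ly6 transcripts hold matches to these seeds was not analysed here.

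The deposited log2 values had medians over all probe sets of 6.95 in Ctrl, 6.65 in Med and 6.66 in Hi, with interquartile ranges of 2.42, 3.12 and 3.08. Aligning the medians therefore raises every difference from Ctrl by 0.30 for Med and by 0.29 for Hi. The Ctrl column stood apart, with Pearson's r across probe sets of 0.787 to Med and 0.795 to Hi, where Med and Hi gave 0.992. Genes of olfactory and vomeronasal receptors (1190 in all), taken here as a gauge of background, had a median level of 4.92 in Ctrl and 4.51 in both Med and Hi. Mir17hg, the host transcript of the cluster, was at 5.98, 6.02 and 6.02, so it gave no check of the labels. The level filter kept genes with a mean level of at least 7.13, the median over genes, which left 9969. That mean takes in all 3 columns, so a gene low in Ctrl can pass through its Med and Hi values. Of 6 colonic markers (Cdx1, Cdx2, Vil1, Lgr5, Muc2 and Car1) only Cdx1 passed the filter. Of 6 epithelial markers 3 passed, all keratins. Krt18 was at 7.97, 11.41 and 12.28, its partner Krt8 at 8.92, 7.28 and 7.32, and Krt19 at 7.50, 7.50 and 7.87. Epcam (6.15 in Ctrl and 5.14 in the others), Cdh1 and Cldn7 did not pass.

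Ly6e encodes a GPI-anchored protein known for its part in syncytin-driven cell fusion in the mouse placenta and for blocking the entry of some coronaviruses. Its log2 level stood at 13.27 in Med, 10.93 in Hi and 8.33 in Ctrl. Med was highest, Hi lay between and Ctrl was lowest. In RNA of a whole culture, fewer cells with a transcript and less of it per cell cannot be told apart. In Med only 19 of the 19938 genes had a higher level, against 589 in Hi and 3723 in Ctrl.

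Relative to Ctrl, the log2 difference of Ly6e was 4.94 in Med (30.6-fold higher) and 2.60 in Hi (6.07-fold higher). Both differences rest on the same Ctrl column, where Ly6e lay above 99.6% of receptor genes but below the highest of them, at 10.01. At least 2-fold higher levels than Ctrl were common on these arrays, with 34.9% of genes past the filter in Med and 33.5% in Hi. A difference as large as that of Ly6e or larger was held by 45 genes in Med, Ly6e included, and by 793 in Hi.

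Relative to Med, Ly6e was lower in Hi by a log2 difference of -2.34, which is 5.05-fold. Among the 9969 filtered genes, 0.863% lay at least 2-fold lower in Hi than in Med, and 0.682% at least 2-fold higher. Ly6e had the 4th lowest difference. The receptor genes gave an SD of 0.09 for the same difference, with a range of -0.61 to 0.66. Of these 1190 genes, 822 had identical values in Med and Hi, which narrows that SD. Their median level was also far below that of Ly6e, so the SD does not measure noise at the level of Ly6e. The difference of Ly6e between Hi and Med lay between -2.34 and -2.11 under every scaling of the columns tried, and that between Med and Ctrl between 4.13 and 5.23. The difference between Hi and Ctrl was 1.82 under quantile normalization. RefSeq also lists a pseudogene, Ly6e-ps1, on chromosome 12, and whether the Ly6e probe set reads it was not tested.

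**Figure D1:**
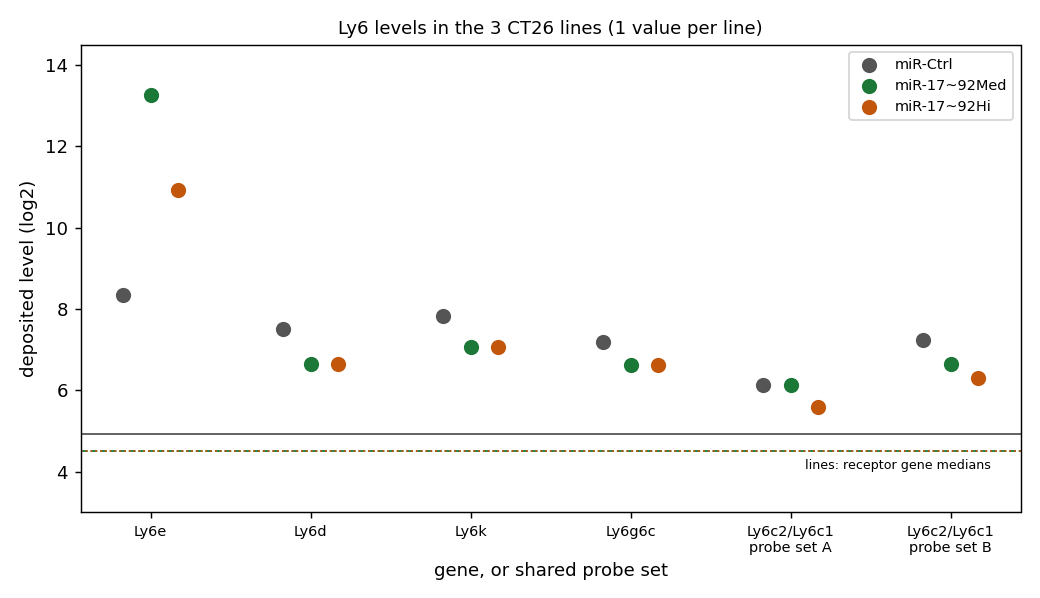
Deposited log2 level (vertical axis) of each Ly6 gene or shared probe set (horizontal axis) in miR-Ctrl (grey), miR-17~92Med (green) and miR-17~92Hi (orange), 1 value per line and no error bars; horizontal lines mark the receptor gene medians of 4.92 (Ctrl) and 4.51 (Med and Hi). Ly6e reaches 13.27 in Med and 10.93 in Hi, while every other point lies between 5.60 and 8.33.

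The other members with a probe set of their own behaved alike, each being highest in Ctrl and identical in Med and Hi. Ly6d, a marker of early B cell progenitors and of stratified epithelium, had levels of 7.52 in Ctrl and 6.64 in both Med and Hi. Ly6k, known from germ cells of the testis, stood at 7.06 in Med and Hi and at 7.82 in Ctrl. The levels of Ly6g6c were 6.62 in Med and Hi against 7.19 in Ctrl. The log2 differences from Ctrl were -0.88, -0.76 and -0.57, all under 2-fold, and kept their sign under the 3 other scalings of the columns, the smallest being -0.28 for Ly6g6c with centred columns.

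Those 3 genes lay at the middle of the array's range, and a shift like theirs is common among genes that did not pass the level filter. Between 44.1% and 51.5% of all genes had a lower level than each of them in Med and Hi, and 96.9% to 99.2% of receptor genes did in each column. The highest receptor gene, at 10.01 in Ctrl and 8.85 in Med and Hi, still lay above all 3. Ly6k passed the level filter, and Ly6d and Ly6g6c did not. Among genes that did not pass, 86.2% were lower than Ctrl in both Med and Hi. Of the 9969 that passed, like Ly6k, 2558 were lower than Ctrl in Med and 2521 in Hi, so its shift was less common there. Identical values in Med and Hi were held by 51.1% of all genes measured. Genes at least 2-fold lower than Ctrl made up 8.7% of those past the filter in Med and 8.4% in Hi, and Ly6k was not among them. That share turns on the scaling, with 867 genes lower in Med as deposited, 469 with centred columns and 1875 under quantile normalization, and 837, 416 and 1781 in Hi. Genes 2-fold higher numbered 3475, 4192 and 2485 in Med, and 3335, 4050 and 2450 in Hi. Ly6k stayed under 2-fold lower in each.

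The probe sets of Ly6c1 and Ly6c2, genes for the Ly6C antigen of monocytes, cannot tell those neighbours apart. The first had levels of 6.13, 6.13 and 5.60 in Ctrl, Med and Hi. The second was at 7.23, 6.66 and 6.31. As deposited, Hi was lowest in both, with log2 differences from Med of -0.54 and -0.35, under 2-fold. For the first probe set the difference between Hi and Ctrl, -0.54, was -0.02 with columns centred and scaled, so the place of Hi below Ctrl depends on the scaling. They did not agree on Med against Ctrl, with 0.00 for the first and -0.57 for the second, and the first turned to 0.49 with columns centred and scaled. Neither mean reached the level filter. In Hi, 84.0% of receptor genes lay below the first probe set and 95.5% below the second. Both levels thus lay within the range of those background genes, and the size of their differences is not known.

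A wider list of 52 LU-domain genes, written from general knowledge, had 42 genes with a probe set of their own, of which 8 passed the filter. Plaur, the urokinase receptor, was the one gene past the filter 2-fold higher than Ctrl, with levels of 7.59, 9.84 and 10.11 in Ctrl, Med and Hi. Lypd9 was the one gene 2-fold lower, at 8.06, 6.92 and 6.85, and was under 2-fold lower with centred columns. Over all genes past the filter 34.9% in Med and 33.5% in Hi were 2-fold higher than Ctrl, and 8.7% and 8.4% were 2-fold lower. Quantile normalization gave 6 genes of the list 2-fold lower in Med and 5 in Hi. Over all filtered genes it raised the count too, to 1875 in Med and 1781 in Hi. How many genes of the list passed the filter under that setting is not reported here. The other 6 that passed (Spaca4, a sperm membrane protein, Lypd2, Ly6g6e, Lypd3, the secreted Slurp1 and Gpihbp1, which carries lipoprotein lipase on capillary endothelium) ranged from 7.53 to 8.21 in Ctrl and from 6.94 to 7.42 in Med and Hi. These levels are within 1 log2 unit of Ctrl for each gene.

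The order of the lines thus differed between the LU-domain genes with raised levels. Ly6e had its highest level in Med, and Plaur had similar levels in Med and Hi, with a difference of 0.27 between Hi and Med. Cd59a, a complement inhibitor named here after its values were seen, was at 5.63, 6.76 and 6.12, the same order as Ly6e but below the filter. Over the 42 genes the differences between Hi and Med ran from -0.64 (Cd59a) to 0.27 (Plaur). None was 2-fold apart, where 102 of all 19938 genes measured were lower and 81 higher. Identical were 22, where 51.1% of all genes measured were, so these counts are near the background. Members and wider list together had 46 genes, of which 39 (84.8%) were lower than Ctrl in both Med and Hi. The share was 55.4% of all genes measured, 86.2% of those below the filter and 83.3% of receptor genes. That of the pooled genes was thus close to the share of low genes in general. Past the filter, 7 of the 8 genes of the wider list were lower than Ctrl in Med and 7 in Hi. Among all 9969 filtered genes 2558 and 2521 were lower, so lower levels were more frequent in those 8.

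Ly6e was also set beside its neighbours on chromosome 15. The run of LU-domain genes from Psca to Gpihbp1, the other genes within it and 5 measured genes on each side gave 30 genes beside Ly6e. Their levels in Med lay between 3.76 and 8.28, against 13.27 for Ly6e. The nearest measured genes were Ly6m, at 6.75 in Ctrl and 5.81 in both others, and Ly6i, at 4.17 and 3.76. Between Hi and Med the 30 genes differed by -0.08 to 0.36, none was 2-fold apart and 16 were identical. Of all 19938 genes measured, 102 were 2-fold lower, 81 were 2-fold higher and 51.1% were identical. The counts of the 30 genes, too, are near that background and say nothing particular of the region. Only Top1mt, a mitochondrial topoisomerase gene outside the run, was higher than Ctrl in both lines, with levels of 7.59, 8.28 and 8.64. Gene order is from RefSeq's table of GRCm38.p6.

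**Figure D2:**
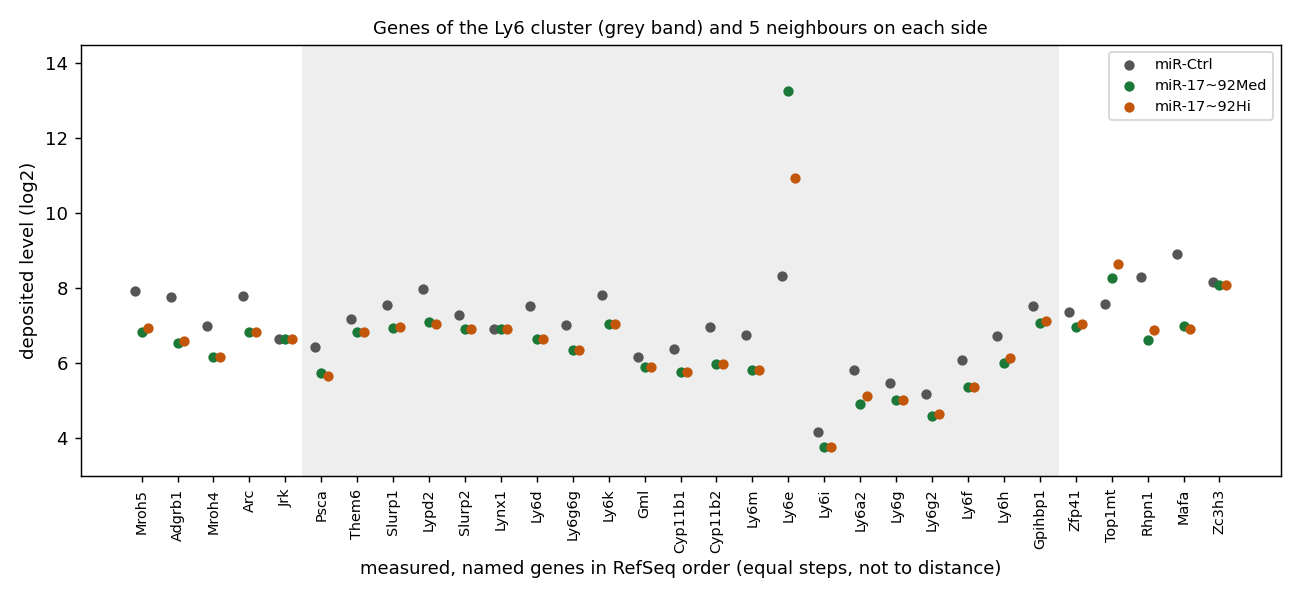
Deposited log2 level (vertical axis) of measured genes in their RefSeq order on chromosome 15 (horizontal axis, equal steps), with miR-Ctrl in grey, miR-17~92Med in green and miR-17~92Hi in orange; the grey band runs from Psca to Gpihbp1. Ly6e is the one gene above 10, and the neighbours stay between 3.76 and 8.93 in all columns.

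Because Ly6e is known as an interferon-stimulated gene, its values were set beside a list of such genes. Of 40 listed, 36 were measured and 32 passed the filter. In Med and in Hi, 28 of the 32 were at least 2-fold higher than Ctrl and none was 2-fold lower. Of all genes past the filter, 34.9% in Med and 33.5% in Hi were higher, and 8.7% and 8.4% were lower. Some listed genes pass the filter only through Med and Hi. With no filter, 28 of the 36 measured were 2-fold higher in each line and none was 2-fold lower. Of all 19938 genes, 3655 in Med and 3485 in Hi were 2-fold higher. The median differences of the 32 were 3.46 in Med and 2.82 in Hi, against 0.42 and 0.39 over all genes past the filter. Ly6e, at 4.94 and 2.60, lay above the list's median in Med and below it in Hi.

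Between Hi and Med, 29 of the 32 genes were lower in Hi, 2 were higher and 1 was identical, with a median of -0.31. Over all genes past the filter the median was 0.00, with 3118 lower, 2277 higher and 4574 identical. At least 2-fold lower were 4 of the 32, where 0.863% of all genes past the filter were. With no filter the count was 4 of 36, against 102 of 19938 genes. The 4 were the antiviral genes Ifit2 (-1.15) and Ifit3 (-1.08), the GTPase gene Gbp7 (-1.07) and the nucleotide hydrolase Samhd1 (-1.04). The difference of Ly6e, -2.34, was further from 0 than that of any measured gene on the list. Ifitm3, whose level in Med (13.08) was closest to that of Ly6e, was at 13.04 in Hi.

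**Figure D3:**
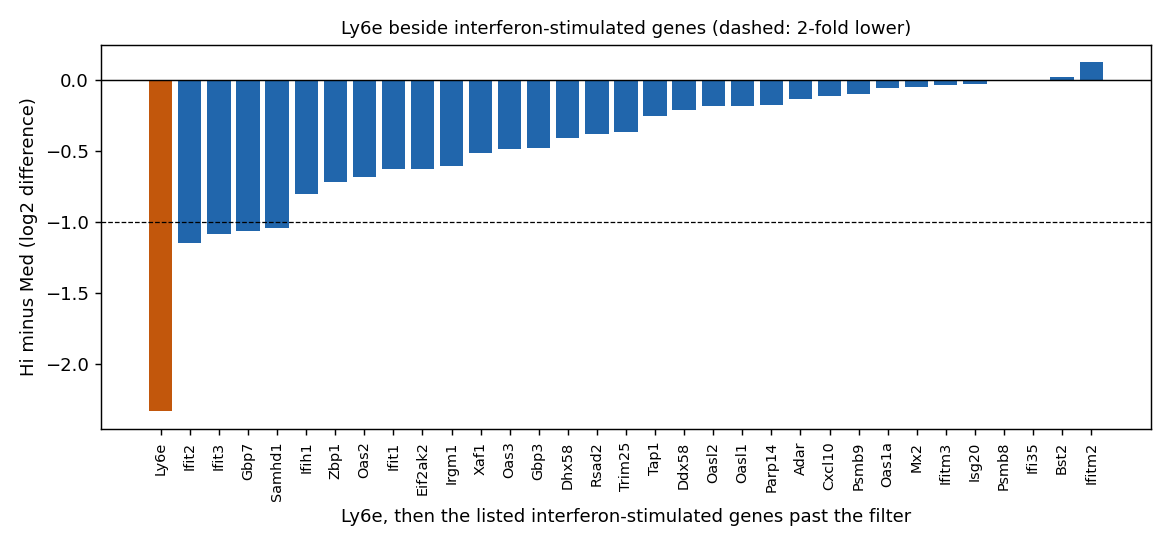
Log2 difference of Hi minus Med (vertical axis) for Ly6e (orange) and for the 32 listed interferon-stimulated genes past the filter (blue, horizontal axis, sorted), from 1 column per line with no error bars; the dashed line marks 2-fold lower. Ly6e is at -2.34 and the listed genes run from -1.15 (Ifit2) to 0.13 (Ifitm2).

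Of 17 regulators of the interferon response past the filter, 11 in Med and 11 in Hi were at least 2-fold higher than Ctrl, and none was 2-fold lower. The shares over all filtered genes were 34.9% and 33.5% higher, and 8.7% and 8.4% lower. With no filter, 11 of 19 measured regulators were 2-fold higher in each line, against 3655 and 3485 of 19938 genes. Between Hi and Med, 7 of the 17 were higher in Hi, 4 lower and 6 identical. The 9969 genes had 2277 higher, 3118 lower and 4574 identical. The receptor chain Ifnar2 had levels of 5.99, 9.10 and 10.30 in Ctrl, Med and Hi. It was the one regulator 2-fold higher in Hi than in Med, where 0.682% of all filtered genes were. The signalling brake Usp18 was lower by 0.81 in Hi than in Med and the transcription factor Stat2 by 0.64. The interferon-gamma receptor chain Ifngr2 was higher by 0.35.

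Genes for the making and attachment of the GPI anchor, with some cargo receptors, gave another comparison, since Ly6 proteins need that anchor to reach the cell surface. Of 32 listed, 29 passed the filter, and in Hi against Ctrl 9 were at least 2-fold higher and 1 lower, a share close to the 33.5% of all genes. Pign (6.76, 10.52 and 10.44 in Ctrl, Med and Hi) and Pigq (6.81, 9.55 and 9.29), both of anchor synthesis, were among the highest. So were the cargo receptor Tmed10 (7.42 in Ctrl and 10.62 in both others) and the transamidase subunit Pigs (7.52, 9.62 and 9.74). None of the 29 was 2-fold apart between Hi and Med, against 0.863% lower and 0.682% higher of all filtered genes, and their median difference, 0.00, was that of all filtered genes. The largest was that of Piga, which starts anchor synthesis, at 7.44, 8.16 and 7.44.

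Genes with a pattern like that of Ly6e were sought among genes past the filter by the distance in the plane of Med minus Ctrl and Hi minus Med, which covers 3 columns and uses Med in both differences. The nearest was the gap junction gene Gja1, with levels of 7.36, 11.55 and 9.44, at a distance of 0.77 log2 units. The mitotic checkpoint kinase Bub1 (distance 0.92), the urea transporter Slc14a1 (0.92), the nuclear body gene Sp100 (0.93) and the lectin Clec2d (0.97) came next. Dynap (1.09), the interferon-inducible Ifi205 (1.18) and the cholesteryl ester hydrolase Nceh1 (1.35) completed the 8. Ly6e was also 1 of 81 filtered genes (0.81%) that were both 2-fold or more above Ctrl in Med and 2-fold or more below Med in Hi. Only 86 filtered genes were 2-fold lower in Hi than in Med at all, so nearly all of those share this pattern. That overlap is partly set in advance, since Med enters both differences. A gene low in Ctrl also passes the filter only through high Med or Hi values. With no filter, 102 genes were 2-fold lower in Hi than in Med, and their place against Ctrl was not counted.

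**Figure D4:**
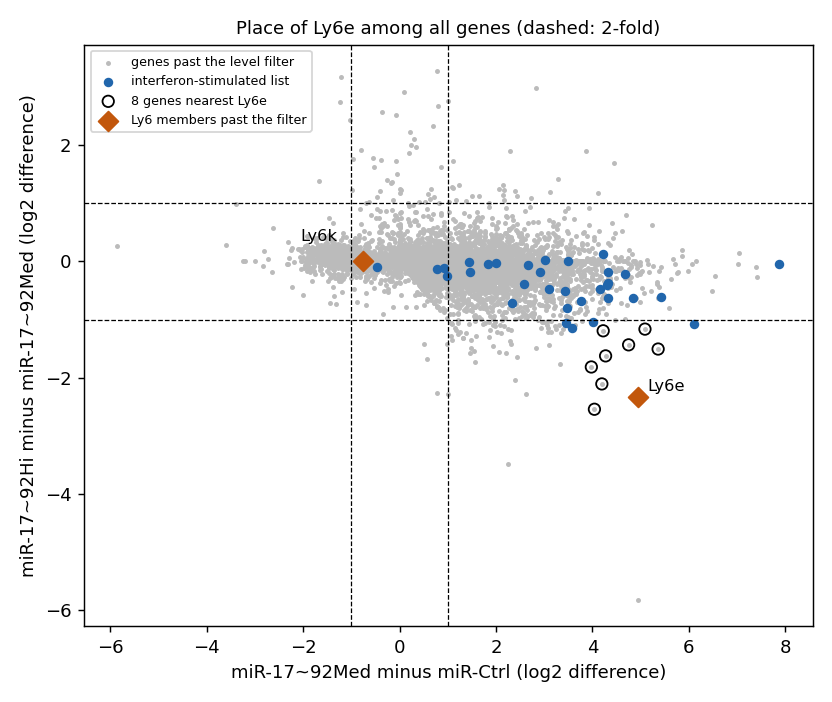
Each grey point is a gene past the level filter, placed by its log2 difference of Med minus Ctrl (horizontal axis) and of Hi minus Med (vertical axis); blue points are listed interferon-stimulated genes, circles the 8 genes nearest Ly6e, diamonds Ly6e and Ly6k, and dashed lines mark 2-fold. Ly6e lies at 4.94 and -2.34, below the blue points, and Ly6k at -0.76 and 0.00.

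Markers of cells in which Ly6 proteins are commonly used were measured as well. None of 5 measured lymphocyte markers (Cd3e, Cd4, Cd8a, Cd79a and Ms4a1) and none of 6 myeloid markers (Ptprc, Itgam, Csf1r, Adgre1, Itgax and S100a8) passed the filter. The lymphocyte markers ranged from 5.45 to 7.95 in Ctrl, where Cd3e (7.95) and Cd8a (7.91) were highest, from 4.70 to 6.61 in Med and from 4.70 to 6.73 in Hi. The myeloid markers ranged from 5.12 to 6.65 in Ctrl, from 4.63 to 5.72 in Med and from 4.70 to 5.72 in Hi. Ptprc, the pan-leukocyte marker, stood at 5.63 in Med and Hi and at 6.23 in Ctrl. Of 5 measured markers of haematopoietic stem cells Gata2 passed, at 7.67 in Ctrl and 7.08 in both others. Of 6 endothelial markers Eng passed, at 8.05, 6.66 and 7.33.

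Promoter windows (300 bases, GRCm38.p6) were at hand for Ly6c1 and Ly6g6c, with 3 windows in all. None held the interferon-stimulated response element core (GAAA, any 2 bases, GAAA) or the gamma-activated site core TTCNNNGAA on either strand. Of all 32851 windows, 3.44% held the first and 8.3% the second. The absence of these letters says nothing of the factors that bind there.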

How the data were processed

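Per the labels' protocols, labelled cRNA made from 100 ng of total RNA with random primers was hybridized to Affymetrix arrays. The deposited table holds 35556 probe sets in 3 columns, 1 per group. The values are taken as log2 from their range (2.13 to 14.8), since no source used here gives the base of the deposited values. Affymetrix Expression Console and GCRMA are named, per the submitters' processing notes, with no role, order or version. Any normalization and pooling of subclones came before deposit, and differences between columns cannot separate those steps from the cells.

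Probe sets listed under 1 gene (21789) were named from GEO's platform annotation, with 21698 updated by gene number to RefSeq (GRCm38.p6), and averaged per gene (19938 genes). The 1621 probe sets listed under several genes were not used by name, except those of Ly6c1. Genes were counted as apart at a log2 difference of 1 or more (2-fold). The counting was tested on simulated data. Members and lists were chosen with earlier results of these data known. Named were all members, LU-domain genes past the filter, up to 4 genes per other list with the largest difference, and the 8 genes nearest Ly6e. Cd59a, Piga, Ifitm2 and Ifitm3 were named after their values were seen. Analyses used Python 3.11.15, pandas 2.3.3 and numpy 2.4.6.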

Additional observations from a re-analysis of the deposited data

How the results depend on the processing

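Alternatives were columns centred on their medians, columns also scaled to a common interquartile range, quantile normalization, the highest probe set per gene, a 1.5-fold limit, a filter at percentile 25 and no filter. With 1 column per group no replicate could be left out. No called difference of a member changed sign. Ly6e moved by more than the SD of the receptor genes under some scalings, though that SD comes from genes of lower level. With columns centred and scaled it was 4.45 for Med against Ctrl and -2.11 for Hi against Med. Under quantile normalization it was 4.13 for Med and 1.82 for Hi against Ctrl. At 1.5-fold, Ly6k joined Ly6e, giving 2 members apart in each comparison with Ctrl. At that limit 5987 of the 9969 filtered genes were apart from Ctrl in Med and 5854 in Hi, so most genes were called. The wider LU-domain list, with 2 genes apart from Ctrl in each line, had 1 with centred columns in each. For Med it had 7 under quantile normalization, 7 at 1.5-fold, 9 with the filter at percentile 25 and 9 with no filter. For Hi the counts were 6, 7, 6 and 6. The list had 8 genes past the main filter and 42 with no filter. Over all genes, quantile normalization gave 4360 for Med and 4231 for Hi against Ctrl, and the filter at percentile 25 gave 6188 and 5877. No filter gave 6911 of 19938 for Med and 6562 for Hi, where the main settings gave 4342 and 4172. For Hi against Med, 154 genes became 100 under quantile normalization and 519 at 1.5-fold. Array number limits the precision of every value.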
